A study of Homo sapiens with 6 samples.

Results

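The genes described here are 56 human genes of mitosis, the spindle and the kinetochore, taken by symbol from a table of 29790 genes measured in A375, an established human melanoma cell line. All 56 symbols were found once each, and all 56 passed the filter on low values, which kept 14344 genes. Total RNA was sequenced from 3 libraries of untreated control cells and from 3 libraries of cells treated with 3 µM fluvastatin for 24 h, numbered 0, 1 and 2 in each group. Both groups were the same line grown side by side in serum-containing medium and the drug was the 1 stated difference between them. Fluvastatin is a statin, an inhibitor of HMG-CoA reductase in the mevalonate pathway. The labels do not say that the 3 libraries of a group were separate cultures, so the spread behind each p-value is that of these 6 libraries and may be only technical.

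As background, a cell enters mitosis when CDK1 bound to a B-type cyclin becomes active. Spindle microtubules then attach to kinetochores, the protein plates built on centromeres, while a checkpoint holds back the anaphase-promoting complex until all chromosomes are attached. That complex marks securin and cyclin B for destruction, separase cuts the cohesin rings, and the central spindle directs the division of the cytoplasm. Most of these genes are transcribed late in the cell cycle, so their RNA in a culture follows the share of cells in G2 and mitosis as well as the level per cell. In bulk RNA fewer dividing cells and less RNA per cell cannot be told apart.

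Many late cell cycle promoters are known to carry a CHR element (cell cycle genes homology region), bound by MuvB complexes, and CCAAT boxes, bound by NF-Y. The following stretches are shown because members that fell together hold both elements close to the start of transcription. Each is the 130 bases just before the RefSeq start on GRCh38.p14, plus strand, 5′ to 3′. Capitals mark TTTGAA or TTTAAA (2 forms of the CHR) and CCAAT, on either strand.
CCNB1: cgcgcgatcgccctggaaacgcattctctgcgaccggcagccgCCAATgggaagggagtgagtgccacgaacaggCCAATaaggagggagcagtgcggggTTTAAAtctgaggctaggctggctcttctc
CCNB2: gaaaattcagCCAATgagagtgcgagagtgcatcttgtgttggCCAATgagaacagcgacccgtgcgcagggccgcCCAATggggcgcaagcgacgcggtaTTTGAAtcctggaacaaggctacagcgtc
CKS2: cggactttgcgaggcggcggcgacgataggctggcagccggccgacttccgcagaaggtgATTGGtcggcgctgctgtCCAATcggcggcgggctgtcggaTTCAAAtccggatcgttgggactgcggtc
PLK1: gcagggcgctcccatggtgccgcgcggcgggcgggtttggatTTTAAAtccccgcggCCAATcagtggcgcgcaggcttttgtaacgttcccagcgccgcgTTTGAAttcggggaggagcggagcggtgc
CDC20: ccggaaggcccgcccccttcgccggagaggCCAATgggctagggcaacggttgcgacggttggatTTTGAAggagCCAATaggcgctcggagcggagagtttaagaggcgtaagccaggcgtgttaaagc
CCNB1 lies at chr5:69167020-69167149, CCNB2 at chr15:59105016-59105145, CKS2 at chr9:89311065-89311194, PLK1 at chr16:23678759-23678888 and CDC20 at chr1:43358851-43358980.

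RefSeq promoter windows of 300 bases, from 250 before to 50 after a start, were matched for 48 of the 56 genes, with 60 windows in all since 8 genes have more than 1 start. TTTGAA stood on either strand in 37 of the 60 windows (61.7%), against 15.2% of all 35116 windows. CCAAT stood in 43 windows (71.7%) against 34.6%, and at least 2 CCAAT matches in 24 windows (40%) against 10.8%. TTTGAA and CCAAT occurred together in 28 windows (46.7%) against 5.9% of all windows. TTTAAA was found in 16 windows (26.7%) against 12.2%. E2F sites were searched as TTCCCGC, as TTTGGCG and as TTTCGCG, and at least 1 of these was found in 13 windows (21.7%) against 9.38%. Counted by gene, so that several starts of 1 gene count once, E2F letters were in 10 of 48 members (20.8%) against 18.5% of the 9427 tested genes with a window. On that count TTTGAA was in 34 of 48 members (70.8%) against 13.6% and CCAAT in 38 (79.2%) against 43.9%. None of these motifs contains another, although neighbouring matches can share bases. The TTTGAA matches of the members began at a median of -28 bases from the start (quartiles -57.5 and -3), whereas over all windows the median was -125. The CCAAT matches began at a median of -76.5 (quartiles -114.25 and -54) against -96 over all windows. Of the 34 members with TTTGAA in any of their windows, 26 fell after fluvastatin, 0 rose and 8 did not pass the test described below. Of the 14 without it, 11 fell, 1 rose and 2 did not pass, and the median log2 fold changes were -0.54 with and -0.67 without, a difference that was not tested. A match describes the letters in a window and not a bound factor. FOXM1, AURKA, TPX2, TTK, BIRC5, BUB3, UBE2C and RACGAP1 had no window in the table used here.

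**Figure D1:**
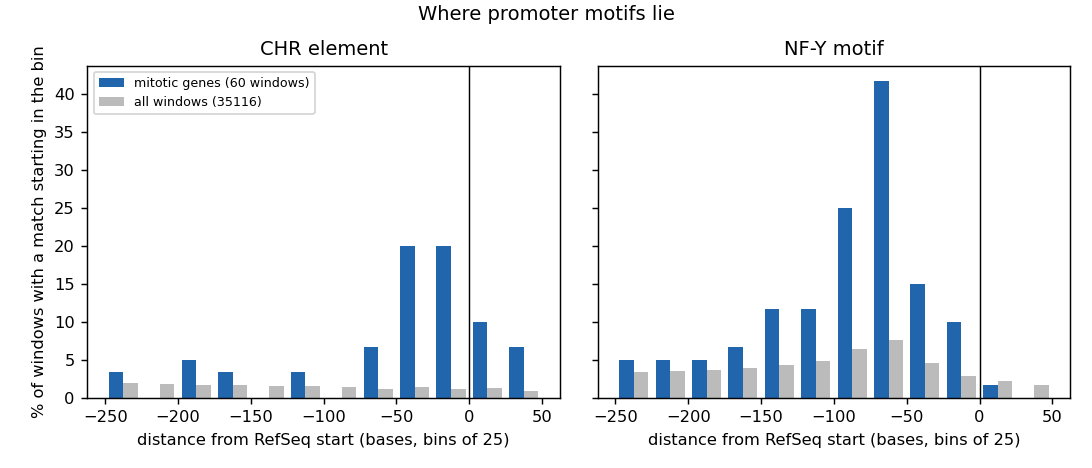
Share of promoter windows (vertical axis, percent) with a match beginning in each bin of 25 bases along the distance from the RefSeq start (horizontal axis, bases), for the CHR element (TTTGAA, left) and the NF-Y motif (CCAAT, right), in the 60 windows of the mitotic genes (blue) and in all 35116 windows (grey). In the members the CHR peaks in the 2 bins before the start, with 20% of windows in each, and the CCAAT box peaks between -75 and -50 with 41.7% of windows, against 7.62% of all windows.

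Of the 56 genes, 43 fell after fluvastatin (76.8%), 2 rose and 11 did not pass. Over all 14344 genes tested, 13.6% fell and 14.1% rose (27.7% called in either direction). A gene is said to have risen or fallen where the Benjamini-Hochberg adjusted p of limma on log2(FPKM + 1) was below 0.05, over all genes tested. FPKM divides a gene's fragments by transcript length and by the size of the library, so levels can be compared between genes. The members' median log2 fold change was -0.55, between -0.94 for CCNB1 and 0.45 for CDC25B, whereas the median over all tested genes was -0.01. In 52 of the 56 genes all 3 fluvastatin libraries lay below all 3 controls, and in 2 they lay above them. Over all tested genes those shares were 22.9% and 21.9% (44.8% not overlapping in either direction). On the FPKM scale 25 members were at least 1.5-fold lower and another 25 were 1.25-fold to 1.5-fold lower. All tested genes were not counted in these bands. The median fold of control over fluvastatin was 1.47 for the members and 1.01 over all tested genes. None (0 of 56) reached a 2-fold difference, which only 382 of all 14344 tested genes did in that direction. The 43 genes that fell were 1.29-fold to 1.90-fold lower.

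Sequencing depth moved with the treatment. With control replicate 0 set to 1, depths estimated from the steps between low values were 1.18 and 0.966 in the other controls. The treated libraries stood at 1.27, 1.51 and 1.41. Each estimate is the most frequent ratio to control replicate 0 and rests on only 5.28% to 9.39% of the low genes compared. By these estimates every treated library was deeper than every control, so depth and treatment cannot be told apart. With depth as a covariate in limma the members' median log2 fold change was -0.56, with 54 negative and 2 positive values. However, 0 of 56 passed the adjusted threshold, against 61 of all 14344 tested genes (0.425%). An unadjusted p below 0.05 was reached by 24 members, and no such count over all tested genes is given here for comparison. Of the melanocyte lineage genes measured 2 of 4 reached 1 FPKM. The lineage factors MITF (6.10 to 7.77 FPKM) and SOX10 (20.1 to 26.1 FPKM in controls, 67.1 to 75.4 FPKM after the drug) were detected, whereas PMEL (at most 0.905 FPKM) and DCT (at most 0.0586 FPKM) were near 0. Of other cell types' markers, 2 of 6 fibroblast, 2 of 5 epithelial, 2 of 2 immune and 1 of 4 endothelial genes reached 1 FPKM in any library. MLANA, TYR, PTPRC and CD3E were not analysed here. The summed levels in controls and treated cells were 28.3 to 33.2 and 73.6 to 83.0 FPKM (melanocyte lineage), 18.0 to 21.6 and 10.3 to 12.3 FPKM (fibroblast), 418 to 482 and 350.2 to 393 FPKM (epithelial), 25.1 to 30.7 and 43.1 to 47.1 FPKM (immune) and 0.345 to 0.382 and 1.30 to 1.61 FPKM (endothelial). Nearly all of the epithelial sum was KRT18 (417 to 481 FPKM in controls, 345 to 387 FPKM after the drug). KRT14 reached at most 5.85 FPKM and KRT5 at most 0.398 FPKM. Nearly all of the immune sum was CD68 (24.6 to 29.7 FPKM in controls, 40.7 to 44.97 FPKM after the drug). LYZ, the other immune gene measured, reached at most 2.38 FPKM. EPCAM, CDH1, COL1A2, COL3A1, PECAM1, CDH5 and VWF were each at or below 0.125 FPKM in every library. The part of depth and of these markers in the decline was not tested.

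**Figure D2:**
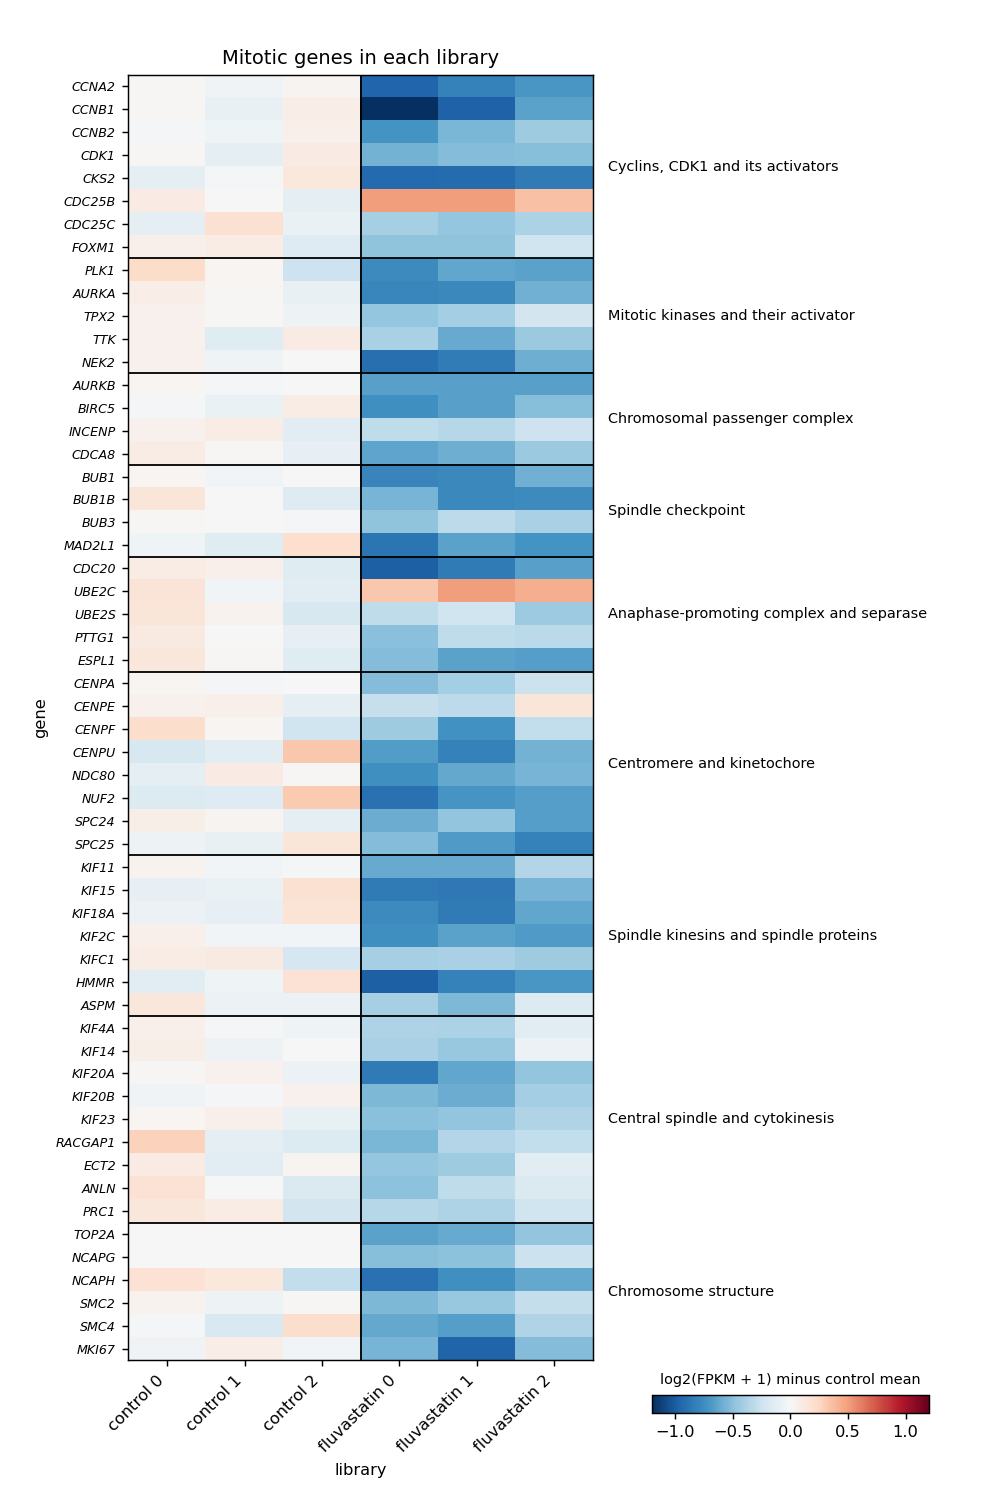
Level of each of the 56 genes (rows, grouped by role) in each of the 6 libraries (columns), as log2(FPKM + 1) minus the mean of the 3 controls. Blue is below and red above the control mean. All treated values lie below the control mean except those of CDC25B and UBE2C and that of CENPE in fluvastatin replicate 2.

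The members' summed level was 5248, 5014 and 4964 FPKM in control replicates 0, 1 and 2 and 3395, 3542 and 3825 FPKM in fluvastatin replicates 0, 1 and 2. The groups did not overlap in this sum. Relative to the control mean, the median member stood at -0.56, -0.60 and -0.45 on the log2 scale in fluvastatin replicates 0, 1 and 2. Fluvastatin replicate 2 was the least lowered of the 3. It held the highest treated value for 41 of the 56 genes, against 34.99% of all tested genes. Leaving it out gave 42 that fell and 1 that rose, with a median of -0.59. Leaving out fluvastatin replicate 0 gave 30 that fell and 0 that rose, and leaving out fluvastatin replicate 1 gave 32 and 0. Among the controls, replicate 2 held both the most lowest values (27 genes) and 17 of the highest. CENPU, NUF2 and SMC4 were highest there, while NCAPH, PLK1 and CENPF were lowest there. In the sentences that follow, values stand in the order of replicates 0, 1 and 2.

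The 2 lowest log2 fold changes, those of CCNB1 and CKS2, were in the group of cyclins, CDK1 and its activators. Of the 8 genes in this group, 7 fell and 1 rose, with a median of -0.55. CCNB1 encodes cyclin B1, the partner that carries CDK1 into mitosis, and lies on GRCh38 chromosome 5 at positions 69167010 to 69178245, plus strand. It was at 276, 257 and 289 FPKM in controls and at 119, 139 and 175 FPKM after the drug (log2 fold change -0.94 ± 0.15 SE, adjusted p = 0.00652). The treated values were 1.90-fold below the controls on average and were all below the lowest control. CKS2, a small subunit that binds cyclin-dependent kinases, was at 244, 261 and 289 FPKM and then 138, 138 and 146 FPKM (log2 fold change -0.90 ± 0.09 SE, adjusted p = 0.00153), with treated libraries close to each other. CCNA2, cyclin A2 of S phase and early mitosis, was at 69.6, 67.03 and 70.9 FPKM and then 35.3, 38.9 and 42.2 FPKM (log2 fold change -0.82 ± 0.10 SE, adjusted p = 0.00215). CCNA2 overlaps EXOSC9, an exosome gene on the other strand, which fell from 39.5 ± 2.49 (SD, n = 3) to 20.8 ± 1.30 FPKM. CDK1, the mitotic kinase itself, was at 97.5, 89.7 and 103 FPKM and then 65.03, 67.3 and 67.5 FPKM, 1.45-fold lower (log2 fold change -0.53 ± 0.09 SE, adjusted p = 0.00733). Its treated values had an SD of 1.37 FPKM against 6.87 FPKM in controls. CCNB2, cyclin B2, fell 1.48-fold, from 81.2 ± 3.33 (SD, n = 3) to 54.8 ± 5.72 FPKM. CDC25C, a phosphatase that activates CDK1, had the lowest control level of the 56 genes and fell 1.38-fold, from 9.52 ± 1.18 (SD, n = 3) to 6.88 ± 0.242 FPKM. FOXM1, a transcription factor of late cell cycle genes, fell 1.32-fold, from 92.8 ± 8.38 (SD, n = 3) to 70.1 ± 7.04 FPKM. The call for CDC25C was lost without control replicate 1 (adjusted p = 0.0724) or fluvastatin replicate 0 (0.0766), 1 (0.0853) or 2 (0.0695), and that for FOXM1 without control replicate 0 (adjusted p = 0.105) or 1 (0.116) or fluvastatin replicate 0 (0.123) or 1 (0.115).

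The exception in this group was CDC25B, another phosphatase of CDK1, which acts in G2 before CDC25C and lies on chromosome 20 at positions 3786772 to 3806121, plus strand. It was at 81.9, 76.8 and 71.04 FPKM in controls and at 109, 109 and 98.04 FPKM after fluvastatin, so that every treated value was above every control. The rise was 1.37-fold (log2 fold change 0.45 ± 0.10 SE, adjusted p = 0.0161). The call was lost without fluvastatin replicate 0 (adjusted p = 0.0584) or 1 (0.0539). The 4 RefSeq windows of CDC25B held no TTTGAA, but they did hold TTTAAA (at 32 bases from a start), CCAAT (at -169 and -73) and E2F letters. Of the 14 members without TTTGAA in a window, 11 fell, 2 did not pass and 1, CDC25B, rose. Any part of these motifs in its rise was not tested.

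All 5 genes for mitotic kinases and their activator fell, with a median of -0.68. NEK2, a kinase of centrosome separation, was at 32.3, 30.1 and 31.1 FPKM and then 16.2, 17.03 and 20.4 FPKM (log2 fold change -0.78 ± 0.11 SE, adjusted p = 0.00391). AURKA, the centrosomal Aurora kinase, was at 74.4, 70.8 and 65.8 FPKM and then 40.5, 40.6 and 46.9 FPKM (log2 fold change -0.71 ± 0.10 SE, adjusted p = 0.00414). PLK1, the polo-like kinase that acts from entry to exit, was at 145, 126 and 104 FPKM and then 72.3, 79.9 and 78.7 FPKM (log2 fold change -0.68 ± 0.13 SE, adjusted p = 0.0132). Its controls were spread more widely than its treated values, and the groups did not overlap. TTK, also called MPS1, which starts checkpoint signalling at kinetochores, was at 30.1, 26.1 and 31.2 FPKM and then 21.9, 18.8 and 21.1 FPKM (log2 fold change -0.48 ± 0.11 SE, adjusted p = 0.0193). TPX2, which activates Aurora A on spindle microtubules, fell least, 1.29-fold from 91.4 ± 3.48 (SD, n = 3) to 70.9 ± 6.53 FPKM. The call for TTK was lost without control replicate 0 (adjusted p = 0.0544) or fluvastatin replicate 1 (0.0603) or 2 (0.0507), and that for TPX2 without control replicate 0 (adjusted p = 0.0903), 1 (0.0899) or 2 (0.0506) or fluvastatin replicate 0 (0.11) or 1 (0.0961).

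Of the 4 subunits of the chromosomal passenger complex, which corrects faulty attachments and later moves to the central spindle, 3 fell and 1 did not pass. AURKB, its kinase, was at 110.0, 107 and 108 FPKM and then 68.4, 68.7 and 68.5 FPKM (log2 fold change -0.65 ± 0.08 SE, adjusted p = 0.00213). Its values lay close together, with SDs of 1.63 FPKM in controls and 0.155 FPKM in treated cells. BIRC5, which encodes survivin, was at 78.3, 75.2 and 84.7 FPKM and then 47.2, 50.1 and 55.2 FPKM (log2 fold change -0.63 ± 0.10 SE, adjusted p = 0.00569). CDCA8, or borealin, was at 40.6, 38.6 and 35.5 FPKM and then 24.2, 25.1 and 27.8 FPKM (log2 fold change -0.56 ± 0.10 SE, adjusted p = 0.00824). INCENP, the scaffold that activates Aurora B, was at 86.9, 88.9 and 76.03 FPKM and then 67.4, 65.7 and 70.2 FPKM (log2 fold change -0.30 ± 0.09 SE, adjusted p = 0.0565). Its groups did not overlap, and it passed without control replicate 2 (adjusted p = 0.0344).

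All 4 spindle checkpoint genes fell, with a median of -0.71. BUB1, a kinetochore kinase, was at 48.6, 46.6 and 47.99 FPKM and then 27.1, 27.4 and 31.6 FPKM (log2 fold change -0.72 ± 0.09 SE, adjusted p = 0.00306). MAD2L1, which encodes MAD2, a direct inhibitor of CDC20, was at 63.7, 59.5 and 76.2 FPKM and then 35.5, 41.9 and 39.8 FPKM (log2 fold change -0.75 ± 0.12 SE, adjusted p = 0.00702). BUB1B, which encodes BUBR1, was at 78.4, 70.8 and 63.4 FPKM and then 47.7, 40.8 and 41.03 FPKM (log2 fold change -0.70 ± 0.12 SE, adjusted p = 0.00704). These 3 genes were 1.64-fold to 1.70-fold lower. BUB3, a partner of both BUB proteins, was at 188, 186 and 184 FPKM and then 133, 149.7 and 141 FPKM, only 1.32-fold lower (log2 fold change -0.40 ± 0.08 SE, adjusted p = 0.0168). The BUB3 call was lost without control replicate 1 (adjusted p = 0.0522) or fluvastatin replicate 0 (0.0612) or 2 (0.0507).

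The anaphase group split. Of 5 genes, 3 fell, 1 rose and 1 did not pass. CDC20, which brings substrates to the anaphase-promoting complex, had the highest control level of all 56 and lies on chromosome 1 at positions 43358955 to 43363203, plus strand. It was at 305, 300.1 and 259.7 FPKM and then 145, 159 and 183 FPKM (log2 fold change -0.83 ± 0.12 SE, adjusted p = 0.00474). ESPL1, or separase, the protease that cuts cohesin, was at 29.98, 27.6 and 24.5 FPKM and then 18.7, 17.1 and 16.8 FPKM (log2 fold change -0.61 ± 0.10 SE, adjusted p = 0.00783). PTTG1, or securin, the inhibitor of separase, was at 275, 254 and 238 FPKM and then 180.1, 207 and 204 FPKM (log2 fold change -0.37 ± 0.10 SE, adjusted p = 0.0344). Both the protease and its inhibitor were thus lower in every treated library. The PTTG1 call was lost without control replicate 0 (adjusted p = 0.0931) or 1 (0.0838) or fluvastatin replicate 0 (0.106), 1 (0.0635) or 2 (0.071).

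UBE2C and UBE2S are the E2 enzymes that load ubiquitin for this complex, the first starting chains and the second extending them. UBE2C, on chromosome 20 at positions 45812576 to 45816957, plus strand, was at 178, 156 and 146 FPKM in controls and at 201, 227 and 217 FPKM after fluvastatin, so that all treated values were above all controls. The rise was 1.34-fold (log2 fold change 0.42 ± 0.11 SE, adjusted p = 0.0281), and the call was lost without control replicate 1 (adjusted p = 0.0787) or 2 (0.0629) or fluvastatin replicate 0 (0.0528), 1 (0.0845) or 2 (0.0788). UBE2S was at 169, 157 and 133 FPKM and then 123, 129 and 112 FPKM (log2 fold change -0.32 ± 0.12 SE, adjusted p = 0.0856), with all treated values below all controls. It passed without control replicate 2 (adjusted p = 0.0382). UBE2S overlaps RPL28, a ribosomal protein gene on the other strand, which rose from 1183 ± 88.7 (SD, n = 3) to 1612 ± 76.7 FPKM. Overlap was taken from whole gene spans, introns included, and shared exons were not looked for. With no strand setting given in the sources used here, reads from any exon stretch that such a pair shares cannot be told apart. By span, 12 of the 56 genes overlap a protein-coding gene, on either strand, that reached 10 FPKM. Among these are FOXM1, CENPU and NCAPG, whose partners RHNO1, PRIMPOL and LCORL on the other strand also fell. UBE2S also has a processed copy, UBE2SP1, at up to 9.53 FPKM.

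At the centromere and kinetochore 6 of 8 genes fell, 0 rose and 2 did not pass, with a median of -0.61. The 4 subunits of the NDC80 complex, the main microtubule receptor of the kinetochore, all fell, with log2 fold changes from -0.75 to -0.58. NDC80 was at 56.9, 66.3 and 62.5 FPKM and then 36.7, 39.996 and 41.7 FPKM (log2 fold change -0.64 ± 0.10 SE, adjusted p = 0.00569). NUF2 was at 59.9, 60.5 and 84.2 FPKM and then 35.8, 40.8 and 42.4 FPKM (log2 fold change -0.75 ± 0.15 SE, adjusted p = 0.0147). SPC24 was at 73.3, 71.4 and 64.8 FPKM and then 45.7, 50.04 and 43.9 FPKM (log2 fold change -0.58 ± 0.10 SE, adjusted p = 0.00727). In none of these 3 did the groups overlap, and the high NUF2 value of control replicate 2 widened that group. SPC25 was at 14.3, 13.9 and 16.5 FPKM and then 10.1, 8.89 and 8.05 FPKM (log2 fold change -0.67 ± 0.11 SE, adjusted p = 0.00768). The NUF2 call was lost without fluvastatin replicate 0 (adjusted p = 0.0508).

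Of the centromere proteins CENPU, part of the inner kinetochore network, fell 1.64-fold, from 62.04 ± 12.7 (SD, n = 3) to 37.8 ± 3.30 FPKM, and CENPA, the histone variant that marks centromeres, fell 1.32-fold, from 31.2 ± 0.56 (SD, n = 3) to 23.5 ± 2.30 FPKM. The call for CENPU was lost without fluvastatin replicate 0 (adjusted p = 0.059) or 1 (0.0649), and that for CENPA without control replicate 0 (adjusted p = 0.0688), 1 (0.0657) or 2 (0.0523) or fluvastatin replicate 0 (0.0824) or 1 (0.0729). CENPF, a large outer kinetochore protein, was at 95.7, 84.1 and 69.7 FPKM and then 61.1, 49.5 and 67.2 FPKM (log2 fold change -0.48 ± 0.16 SE, adjusted p = 0.0676). It passed without control replicate 2 (adjusted p = 0.0403). CENPE, a kinesin that moves chromosomes to the metaphase plate, was at 33.1, 33.4 and 29.5 FPKM and then 26.2, 25.4 and 35.3 FPKM (log2 fold change -0.15 ± 0.14 SE, adjusted p = 0.476). Its fluvastatin replicate 2 was above all 3 controls, so its groups overlapped.

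Of 7 spindle kinesins and spindle proteins, 6 fell, 0 rose and 1 did not pass, with a median of -0.68. KIF2C, or MCAK, which depolymerises microtubules at kinetochores, was at 63.2, 59.1 and 59.1 FPKM and then 35.97, 38.4 and 37.4 FPKM (log2 fold change -0.68 ± 0.08 SE, adjusted p = 0.00232). HMMR, a spindle pole protein and hyaluronan receptor, was at 50.2, 52.9 and 61.98 FPKM and then 27.3, 30.8 and 33.4 FPKM (log2 fold change -0.83 ± 0.12 SE, adjusted p = 0.00459). KIF18A, which dampens chromosome oscillations, was at 17.1, 16.7 and 20.3 FPKM and then 10.2, 9.50 and 11.3 FPKM (log2 fold change -0.75 ± 0.11 SE, adjusted p = 0.0051). Each was at least 1.62-fold lower, with no overlap. KIF15, a motor that helps hold the spindle bipolar, was at 18.1, 18.4 and 22.3 FPKM and then 10.4, 10.3 and 12.9 FPKM (log2 fold change -0.76 ± 0.13 SE, adjusted p = 0.00762). KIF11, or Eg5, the main motor that pushes spindle poles apart, fell 1.44-fold, from 67.5 ± 1.96 (SD, n = 3) to 46.9 ± 5.07 FPKM. KIFC1, a minus-end motor that focuses the poles, fell 1.34-fold, from 48.5 ± 5.699 (SD, n = 3) to 36.2 ± 0.425 FPKM, and its call was lost without control replicate 0 (adjusted p = 0.0907) or 1 (0.099) or fluvastatin replicate 0 (0.0893), 1 (0.0812) or 2 (0.0912). ASPM, a spindle pole protein, was at 60.2, 51.9 and 52.1 FPKM and then 41.2, 37.3 and 48.6 FPKM (log2 fold change -0.37 ± 0.12 SE, adjusted p = 0.0719). It passed without fluvastatin replicate 2 (adjusted p = 0.0479).

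Genes of the central spindle and cytokinesis held most of the members that did not pass, 6 of 11. Of these 9 genes 3 fell and 0 rose, and the median was -0.34. KIF20B, a kinesin of late division, was at 46.3, 47.001 and 49.5 FPKM and then 32.5, 31.1 and 35.7 FPKM (log2 fold change -0.51 ± 0.09 SE, adjusted p = 0.00843). KIF20A, or MKLP2, which carries the passenger complex to the midzone, was at 61.8, 63.7 and 58.4 FPKM and then 33.6, 39.5 and 43.97 FPKM (log2 fold change -0.65 ± 0.12 SE, adjusted p = 0.00944). KIF23, or MKLP1, the motor of centralspindlin, was at 72.5, 74.6 and 66.9 FPKM and then 49.9, 51.1 and 55.1 FPKM (log2 fold change -0.45 ± 0.09 SE, adjusted p = 0.0134), and its call was lost without fluvastatin replicate 0 (adjusted p = 0.0515). These 3 kinesins were lower in every treated library than in any control. RACGAP1, the GTPase-activating subunit of centralspindlin, was at 114, 86.9 and 83.4 FPKM and then 63.8, 73.1 and 76.4 FPKM (log2 fold change -0.40 ± 0.14 SE, adjusted p = 0.0846). ECT2, the exchange factor that activates RhoA at the equator, was at 76.1, 65.2 and 72.6 FPKM and then 51.4, 52.7 and 64.9 FPKM (log2 fold change -0.34 ± 0.12 SE, adjusted p = 0.0829). Both had separate groups, and the least lowered library was fluvastatin replicate 2. For ECT2 the groups nearly met, with 64.9 FPKM in that library against 65.2 FPKM in control replicate 1. ANLN, or anillin, the scaffold of the contractile ring, was at 249, 221 and 196 FPKM and then 157, 179 and 196 FPKM (log2 fold change -0.32 ± 0.13 SE, adjusted p = 0.111). Its groups met, since control replicate 2 and fluvastatin replicate 2 were nearly equal. PRC1, which bundles antiparallel microtubules, was at 189.5, 184 and 148 FPKM and then 136, 134 and 147 FPKM (log2 fold change -0.32 ± 0.12 SE, adjusted p = 0.0945). KIF4A, its partner motor, was at 29.3, 27.8 and 27.1 FPKM and then 21.4, 21.4 and 25.4 FPKM (log2 fold change -0.30 ± 0.10 SE, adjusted p = 0.0706). KIF14, which binds PRC1 and citron kinase, was at 25.4, 23.1 and 24.2 FPKM and then 18.3, 17.4 and 23.1 FPKM (log2 fold change -0.30 ± 0.12 SE, adjusted p = 0.115). KIF4A overlaps PDZD11 on the other strand, which rose from 32.998 ± 1.92 (SD, n = 3) to 44.6 ± 0.916 FPKM. In PRC1, KIF4A and KIF14 the treated values were below all controls by a narrow margin. PRC1 passed without control replicate 2 (adjusted p = 0.0263), ECT2 without fluvastatin replicate 2 (adjusted p = 0.046), KIF4A without fluvastatin replicate 2 (adjusted p = 0.0495) and KIF14 without fluvastatin replicate 2 (adjusted p = 0.0411).

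All 6 genes of chromosome structure fell, with a median of -0.56. TOP2A, the topoisomerase that untangles sister DNA, was at 150.1, 149 and 149 FPKM and then 95.2, 97.8 and 107 FPKM (log2 fold change -0.57 ± 0.08 SE, adjusted p = 0.00491). MKI67, which encodes the proliferation antigen Ki-67 that coats mitotic chromosomes, was at 118, 128 and 118 FPKM and then 81.8, 61.8 and 84.4 FPKM (log2 fold change -0.68 ± 0.14 SE, adjusted p = 0.0136). NCAPH, a condensin I subunit, was at 41.7, 40.2 and 29.8 FPKM and then 19.3, 21.6 and 23.8 FPKM (log2 fold change -0.75 ± 0.15 SE, adjusted p = 0.0143). No treated value reached a control in these genes, although control replicate 2 of NCAPH stood well below its other controls. SMC2, an ATPase common to both condensins, was at 47.8, 44.5 and 46.9 FPKM and then 31.6, 33.5 and 37.9 FPKM (log2 fold change -0.43 ± 0.10 SE, adjusted p = 0.0205). SMC4, its partner, fell 1.46-fold, from 232 ± 32.7 (SD, n = 3) to 159 ± 18.04 FPKM, and NCAPG fell 1.34-fold, from 71.4 ± 0.382 (SD, n = 3) to 53.3 ± 5.50 FPKM. The calls were lost for SMC2 without control replicate 0 (adjusted p = 0.058) or fluvastatin replicate 0 (0.0694) or 1 (0.0637), for SMC4 without control replicate 0 (adjusted p = 0.0611) or 2 (0.0563) or fluvastatin replicate 0 (0.0853) or 1 (0.0843) and for NCAPG without control replicate 0 (adjusted p = 0.0559) or 1 (0.0617) or fluvastatin replicate 0 (0.0757) or 1 (0.0703).

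**Figure D3:**
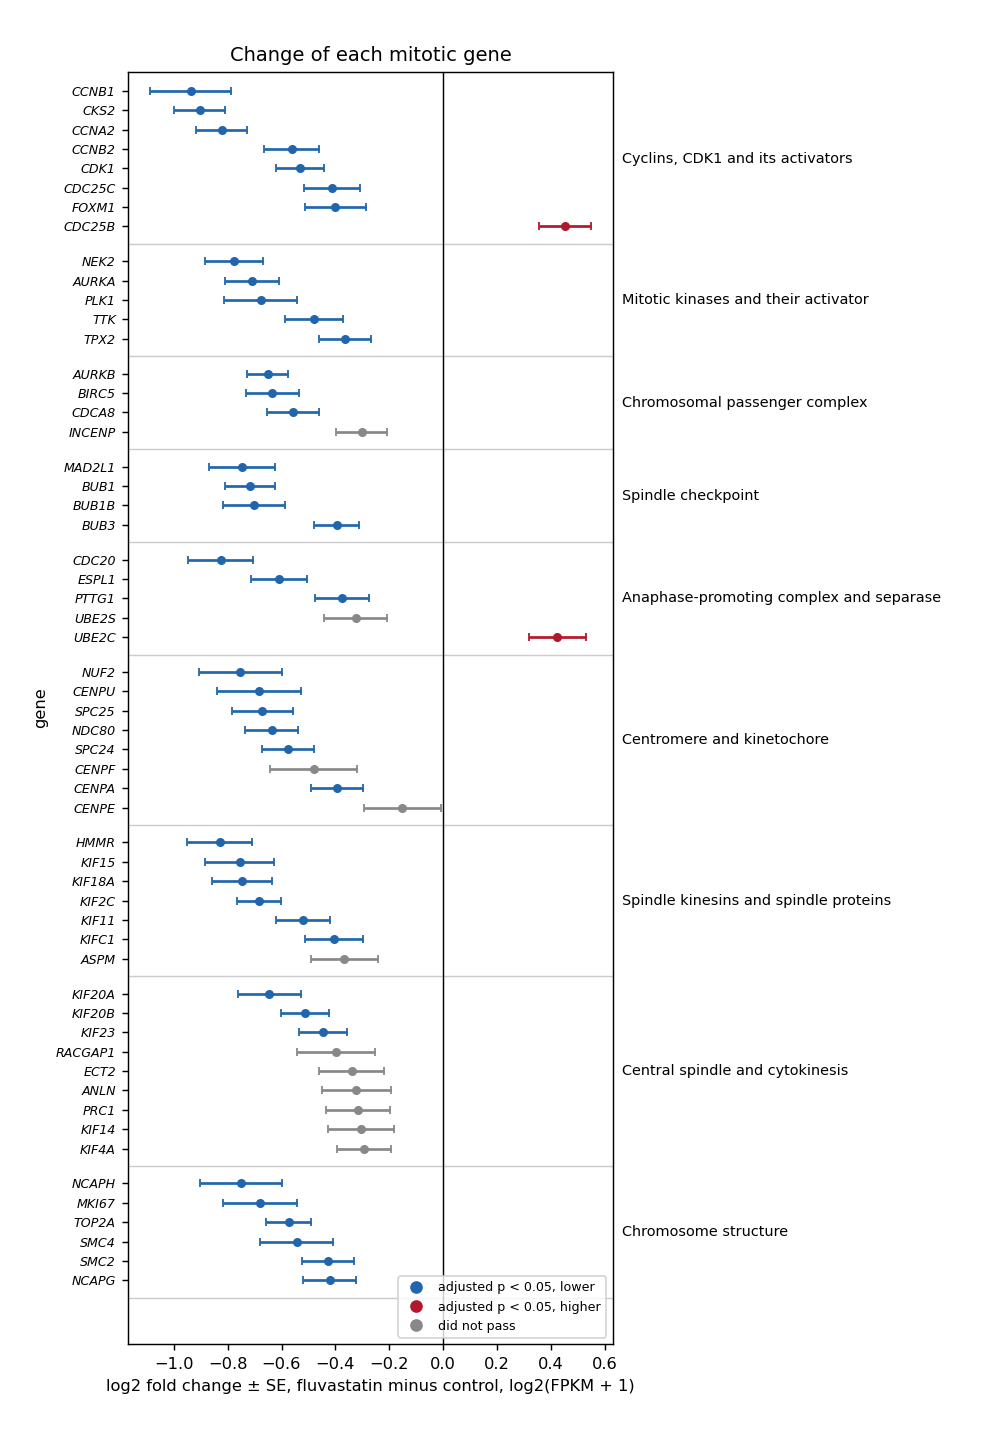
Log2 fold change of each of the 56 genes (horizontal axis, fluvastatin minus control on log2(FPKM + 1), with SE from limma, 3 libraries a group), grouped by role. Blue points fell, red points rose and grey points did not pass an adjusted p below 0.05. The role medians nearest to 0 are -0.34 for the 9 central spindle and cytokinesis genes and -0.37 for the 5 anaphase genes.

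**Figure D4:**
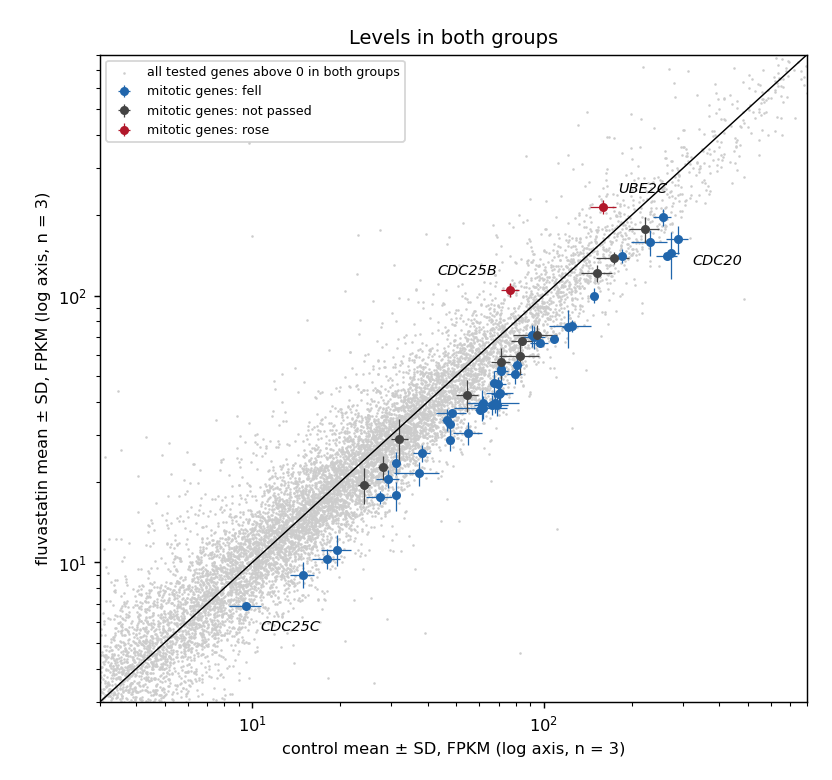
Mean level in fluvastatin libraries against the mean in control libraries (FPKM, both axes logarithmic, bars are SD over 3 libraries) for the 56 genes and, in light grey, all tested genes above 0 in both groups. The members run parallel to the line of equal levels and below it over control levels of 9.52 to 288 FPKM, and CDC25B and UBE2C lie above it.

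Level and transcript length were set beside the change. Across the 56 genes, which share the 6 libraries, Pearson's r between the log2 control level and the log2 fold change was 0.04, and that between log2 transcript length and the log2 fold change was 0.03 (Spearman's rho 0.22). Over the 14277 tested genes with a length those with level and length were -0.19 and 0.01. By length 6 of 7 members under 1500 nt fell, 19 of 21 between 1500 and 3000 nt, 11 of 17 between 3000 and 5000 nt and 7 of 11 above 5000 nt. Over all tested genes 451 of 4386, 810 of 5022, 471 of 3124 and 216 of 1745 fell in the same bins. Genes are not independent replicates, and these values are descriptions.

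Other genes of the mitotic machinery were lower by less at the median. Of 146 tested genes on 7 further lists, 63 fell (43.2%), 7 rose and 76 did not pass, and their median was -0.30, beside 13.6% that fell and a median of -0.01 over all tested genes. Among other kinetochore and centromere genes 16 of 33 fell and 1 rose. CENPM, an inner kinetochore subunit, fell 2.21-fold, SPDL1, or Spindly, which brings dynein to kinetochores, fell 1.97-fold and ZWINT fell 1.66-fold. CENPT, which links the inner kinetochore to the NDC80 complex, rose 1.70-fold. Among other spindle and centrosome genes 20 of 35 fell and 0 rose, with DEPDC1B down 1.88-fold, the plus-end motor KIF18B 1.76-fold and the augmin subunit HAUS8 1.79-fold. Of 15 further condensin and cohesin genes 8 fell and 1 rose. The condensin subunits NCAPD2 and NCAPD3 fell 1.74-fold and 1.53-fold, CDCA5, or sororin, which protects cohesin, fell 1.32-fold, and the cohesin acetyltransferase ESCO1 rose 1.23-fold. The CDCA5 call was lost without control replicate 1 (adjusted p = 0.0543) or fluvastatin replicate 0 (0.0528) or 2 (0.0552), and the ESCO1 call in all 6 fits that left out 1 library (adjusted p 0.0667 to 0.128).

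Of 16 mitotic entry control genes 6 fell and 0 rose. CDC25A, the CDC25 phosphatase of S phase and G2, fell 2.43-fold, from 31.01 ± 2.34 (SD, n = 3) to 12.8 ± 0.922 FPKM (adjusted p = 6.94e-04). PKMYT1, a kinase that restrains CDK1, fell 1.82-fold, and CKS1B, the paralog of CKS2, fell 1.61-fold. The 3 CDC25 genes thus gave a fall for CDC25A and CDC25C and a rise for CDC25B.

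Of 17 subunits and inhibitors of the anaphase-promoting complex 3 fell and 0 rose, and the median was -0.07. ANAPC1, its scaffold, fell 1.46-fold, ANAPC7 1.42-fold and the inhibitor FBXO5, or EMI1, 1.25-fold. The FBXO5 call was lost in 5 of the 6 fits that left out 1 library (adjusted p 0.0484 to 0.111 over the 6). Among 17 genes that were listed here as other cytokinesis genes, a grouping chosen for this report, the directions differed. Of these genes 4 fell and 5 rose, with a median of 0.14. Those that fell included PLK2, a polo-like kinase (1.88-fold), CDCA3 (1.63-fold) and ARHGAP11A, a RhoA-inactivating protein (1.60-fold). Those that rose included the kinesin KIF13A (1.97-fold) and, of the ESCRT machinery that severs the midbody, PDCD6IP, or ALIX (1.45-fold), and CHMP4C (1.93-fold). Of 13 genes of the DREAM and B-MYB complexes, which act on CHR elements, 6 fell and 0 rose, with RBBP4 down 1.55-fold, TFDP1 1.45-fold and E2F5 1.49-fold. For comparison 30 of 35 genes of S phase fell and 0 rose, with a median of -0.77. MCM3, MCM4 and MCM6, subunits of the replicative helicase, fell 2.10-fold, 1.93-fold and 1.94-fold. Differences between these lists were not tested.

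**Figure D5:**
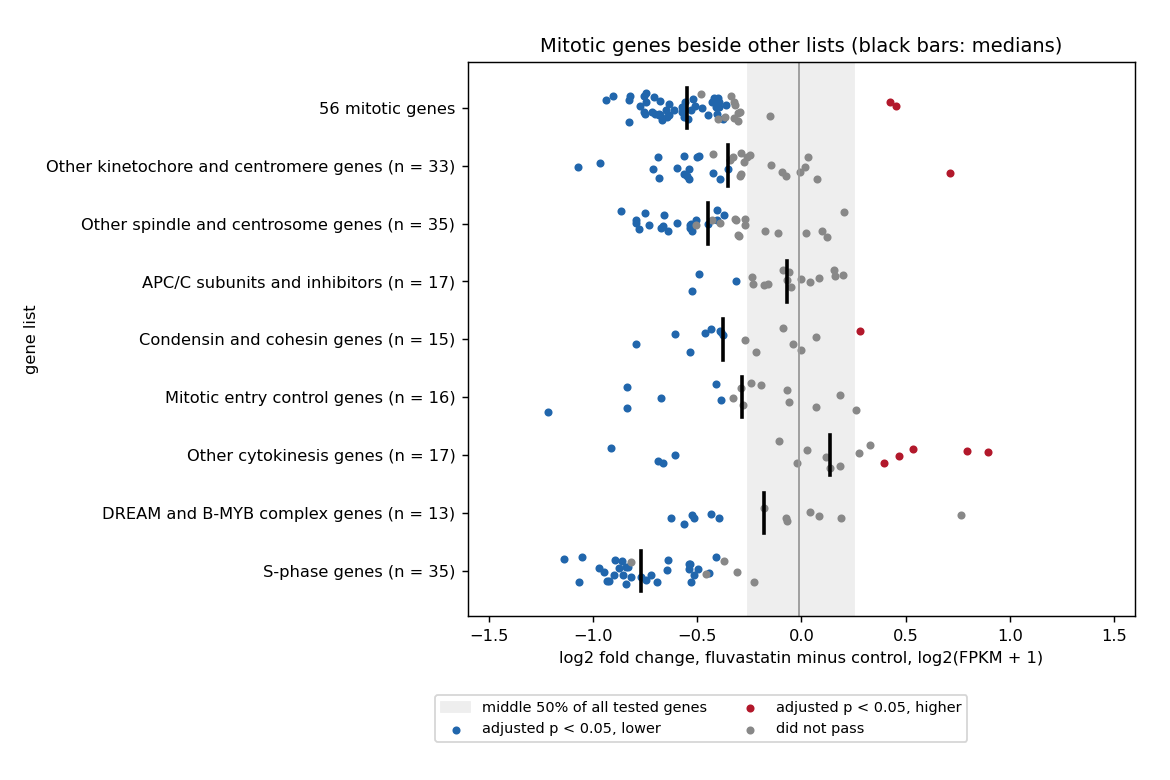
Log2 fold change (horizontal axis, fluvastatin minus control on log2(FPKM + 1)) of the 56 mitotic genes and of 8 other lists, 1 point per gene, blue for genes that fell, red for those that rose and grey for those that did not pass. Black bars are medians, and the grey band holds the middle 50% of all tested genes. The medians run from -0.77 for the S-phase genes and -0.55 for the 56 genes to 0.14 for the other cytokinesis genes.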

How the data were processed

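RNA-seq of 3 control and 3 fluvastatin libraries of A375 cells was analysed from 1 table of gene levels. The deposited values were made with STAR, Cufflinks and Cuffdiff on hg38, per the submitters' processing notes. The table's header names no unit, and the deposited values were taken as FPKM from the tools named and from their range and sums. Versions, annotation and strand setting are not given in the sources used here. No counts were used, so intervals that need depth were not computed. Relative depth was estimated from the most frequent ratio between libraries of low values in genes at 0 in at least 1 library.

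The filter kept the 14344 genes that reached 1 FPKM in 3 or more of the 6 libraries. The test was limma (version 3.58.1, under R 4.3.3) on log2(FPKM + 1), with Benjamini-Hochberg adjustment over all of them. Fold changes on this scale understate the change of low genes, so folds are given from group means of FPKM. The fit was tested on simulated data. Identifiers of 29542 of 29790 genes matched GENCODE 29, which gave positions and transcript lengths. Promoter windows came from RefSeq (GRCh38.p14).

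The members, the role groups and the other gene lists were chosen with earlier results of these data known. Full statistics are given for up to 4 members of each role with the smallest adjusted p and for each one that did not pass or moved against most of its role, and for each other list up to 3 genes in each direction. Alternatives were another pseudocount, other filters, other scalings, another variance model, a replicate block, a depth covariate, removal of a length trend and leaving out each library.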

Additional observations from a re-analysis of the deposited data

How the results depend on the processing

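Without each library in turn, between 30 and 44 of the 56 genes fell and between 0 and 2 rose, and over all genes between 2277 and 3483 were called, with the lowest counts without fluvastatin replicate 0. Of the 43 that fell, 29 passed in all 6 of these fits. Of the other mitotic lists between 40 and 51 genes fell and between 4 and 7 rose. With depth as a covariate 0 members fell and 0 rose, 0 genes of the other lists fell and 0 rose, and 61 genes were called in all. There 24 of 56 members had an unadjusted p below 0.05, a count without its share over all genes. Under this fit the members' median log2 fold change was -0.56, against -0.55 without the covariate, and 54 of 56 values were negative in both. Samples with the same replicate number had correlations of deviations of -0.002, 0.085 and 0.084 over genes. Control and fluvastatin samples with different numbers had -0.136 to 0.058. Values this small, from 3 libraries a group, cannot decide whether samples of the same number were handled together, and this was not tested. With the replicate block 37 members fell and 1 rose, the lost calls being those of UBE2C (adjusted p = 0.0688), CDC25C, FOXM1, TPX2, PTTG1, CENPA and KIFC1. Trimmed-mean scaling, quantile normalization, a variance trend with robust fitting, removal of the length trend, both other filters and a pseudocount of 0.1 gave 39 to 51 that fell and 2 that rose. No member changed direction in any of these fits, and the median of all genes stayed between -0.03 and 0.01. The same fits for the 29 named genes of other lists were added after seeing the data, and none of these genes changed direction. No interval of counting error could be given.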
